A study of Vitis rotundifolia with 18 samples.

Results

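The 10 genes described here are those listed as the entry enzymes of phenylpropanoid metabolism in berries of the muscadine grape, Vitis rotundifolia. The list holds 5 identifiers for phenylalanine ammonia-lyase (PAL), 3 for cinnamate 4-hydroxylase (C4H) and 2 for 4-coumarate:CoA ligase (4CL), of 27228 identifiers in all. The members were taken by identifier, with no cut-off on a measured value. The list was chosen with earlier results of these data known. The deposited files do not pair identifiers with gene names, so the family of each member comes from the list. All 10 were found, had counts in every library and were among the 17657 genes that passed the filter on low counts.

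PAL removes ammonia from phenylalanine to give cinnamic acid, C4H, a cytochrome P450, hydroxylates cinnamic acid to p-coumaric acid, and 4CL joins p-coumaric acid to coenzyme A. The product, p-coumaroyl-CoA, feeds the branches that make flavonoids, stilbenes and lignin. In grape berries these branches give the tannins of young fruit, the anthocyanins of coloured skins and the stilbenes of ripe or stressed fruit.

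RNA from berries of the black-fruited cultivar Noble and the bronze-fruited cultivar Carlos gave 18 libraries, 3 for each of 6 combinations of cultivar and stage. The stages are E-L 32 (bunch closure), E-L 35 (veraison, when ripening sets in) and E-L 38 (maturity, the harvest stage) of a numbered scale of grapevine growth. The labels give no treatment, and berries of both cultivars were collected at 1 research station. The study asked how the cultivars differ in their transcripts over these stages. Nothing in the labels says whether the replicates came from separate vines, so each p-value rests on the spread among these libraries alone, which may be technical. The labelled tissue could not be checked against marker genes, since no identifier was annotated. In bulk samples, fewer cells of a type and less RNA per cell cannot be told apart.

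Expected counts per library ran from 18919160 to 30843026. At maturity the libraries went against their cultivar labels. VIT_04s0008g04060, chosen after its values were seen, measured 175 to 257 CPM (counts scaled to a common library total) in Noble at bunch closure and 886 to 1359 CPM at veraison, and at most 0.550 CPM in Carlos at both stages. In the libraries labelled Noble at E-L 38 it measured at most 2.79 CPM, and in those labelled Carlos 1118 to 1623 CPM. Of 1039 genes called in the same direction between cultivars at E-L 32 and E-L 35, 732 were also called at E-L 38, and 721 of these (98.5%) had the opposite direction there. Groups at E-L 38 are therefore named by their label, and steps to E-L 38 are given as the mean of both labels. That mean stays the same if the whole groups exchange names, but need not if single libraries do. Carlos E-L 35 replicate 3 correlated with its replicates at 0.920 to 0.922 (Pearson's r of log2 CPM across genes), against 0.991 between the other two. For Carlos E-L 38 replicate 3 the r was 0.976 to 0.977, against 0.988. Noble E-L 32 replicate 1 had 0.976 to 0.979, against 0.992, and Noble E-L 35 replicate 2 had 0.968 to 0.973, against 0.979. Where a call ended, or a called value moved over 1.5-fold, when a single one of these libraries was left out, the text says so.

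Compared per transcript length, in the deposited TPM (abundance scaled by transcript length and library total), the 10 genes differed widely in level. PAL VIT_06s0004g02620 had the highest mean of the 10, 496 TPM over the 18 libraries, and C4H VIT_06s0004g08150 followed with 473 TPM. Both lay at percentile 98.3 of mean TPM among the genes tested. PAL VIT_13s0019g04460 averaged 168 TPM, PAL VIT_08s0040g01710 102 TPM, and the 4CL genes VIT_16s0039g02040 and VIT_11s0052g01090 104 and 94.2 TPM. The other members were low, from 2.80 TPM for PAL VIT_16s0039g01100 and 4.71 TPM for C4H VIT_11s0078g00290 to 17.999 TPM for C4H VIT_11s0065g00350 and 21.5 TPM for PAL VIT_16s0039g01300. These 4 are also the members whose reads were shared with similar genes, described further on.

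**Figure D1:**
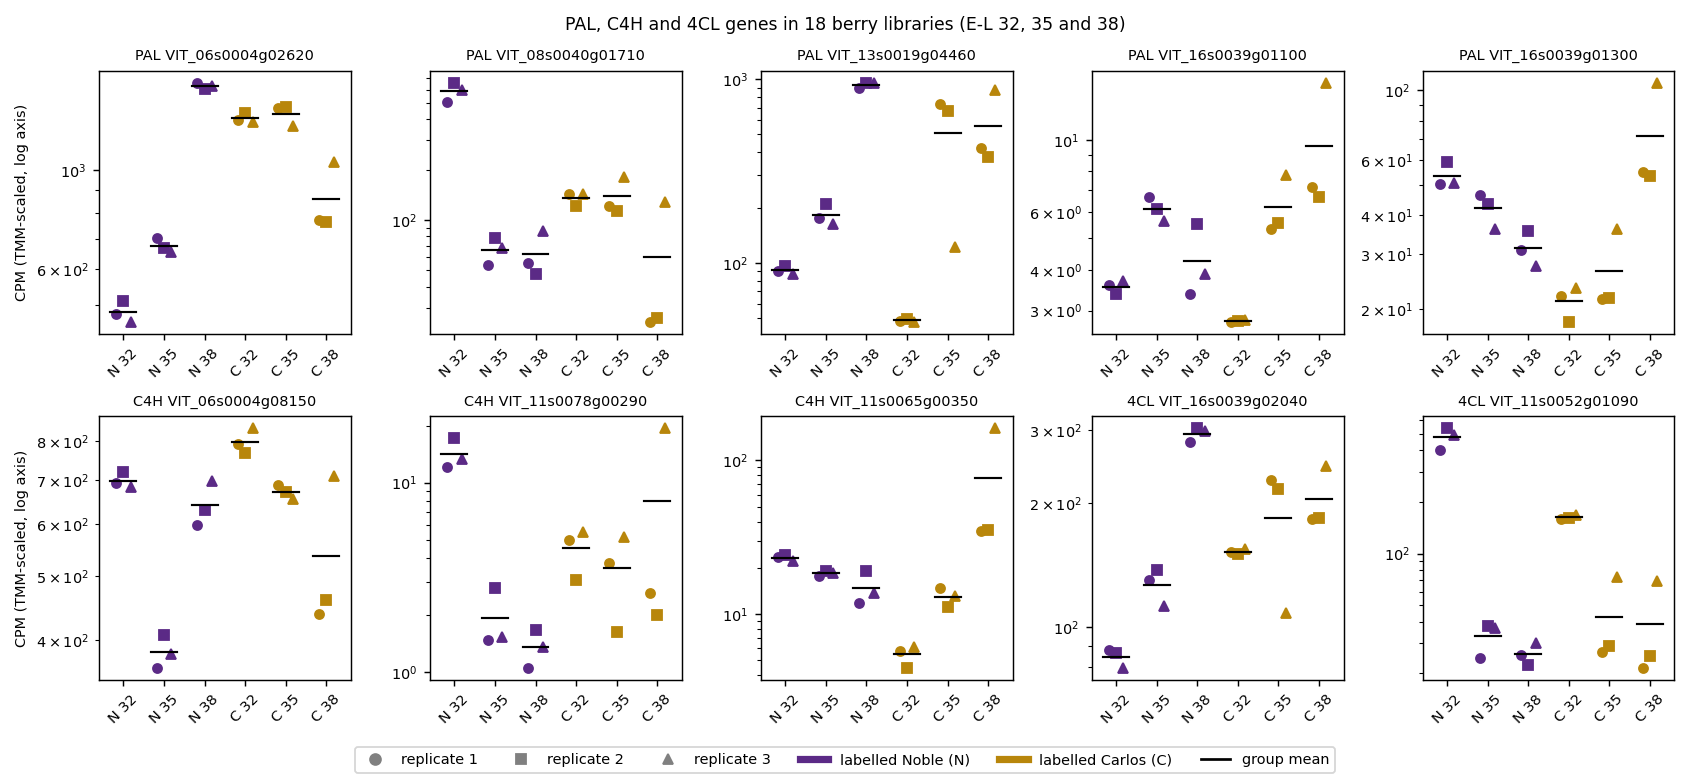
CPM (TMM-scaled, log axis, own range in each panel) of the 10 genes in each of the 18 libraries, with cultivar label and E-L stage on the x axis; symbols are replicates and black lines are group means. VIT_11s0052g01090 lies at 158 CPM or more in the 6 libraries of E-L 32 and at 73.2 CPM or less in the other 12, while VIT_13s0019g04460 is at most 96.3 CPM at E-L 32 and at least 376 CPM at E-L 38.

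Of the PAL genes, VIT_06s0004g02620 was the most abundant. In Noble it measured 478, 510.4 and 458 CPM at E-L 32 and 706, 668 and 656 CPM at E-L 35. In Carlos it measured 1294, 1337 and 1279 CPM at E-L 32 and 1371, 1380.1 and 1252 CPM at E-L 35. At both stages every Carlos library was above every Noble library. At E-L 38 the libraries labelled Noble had 1565, 1515 and 1535 CPM and those labelled Carlos 772, 765 and 1041 CPM, so the order of the labels was turned. Of neighbours in the order of the 6 group means, the ranges overlapped only between Carlos at E-L 35 and Carlos at E-L 32.

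PAL VIT_08s0040g01710 was high in a single group. It measured 503, 660.1 and 594 CPM in Noble at E-L 32, and in the other 15 libraries it reached at most 182 CPM. In Carlos it had 143, 122 and 142 CPM at E-L 32 and 121, 113 and 182 CPM at E-L 35. Noble at E-L 35 had 54.1, 77.8 and 68.0 CPM, below every Carlos library of that stage. At E-L 38 it measured 55.2, 47.3 and 86.1 CPM under the Noble label and 24.7, 25.9 and 129 CPM under the Carlos label, with overlapping ranges.

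PAL VIT_13s0019g04460 had its lowest values at E-L 32 and its highest at E-L 38. In Noble it went from 91.0, 96.3 and 87.3 CPM at E-L 32 to 176, 209 and 163 CPM at E-L 35. In Carlos it went from 48.5, 49.8 and 47.9 CPM at E-L 32 to 733, 669 and 122 CPM at E-L 35. Carlos E-L 35 replicate 3, one of the libraries that stood apart, was the low one and lay below the Noble libraries of that stage. At E-L 38 it measured 893, 952 and 958 CPM under the Noble label and 422, 376 and 869 CPM under the Carlos label. The group means ran from 48.7 CPM ± 0.969 (SD, n = 3) in Carlos at E-L 32 to 934 CPM ± 35.9 (SD, n = 3) under the Noble label at E-L 38, a 19.2-fold range that was the widest of the 10 genes.

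The last PAL pair had lower levels. VIT_16s0039g01100 measured 2.77 to 15.0 CPM over all libraries, and VIT_16s0039g01300 18.2 to 106 CPM. Both had their highest value in Carlos E-L 38 replicate 3. In VIT_16s0039g01300 Noble was above Carlos at E-L 32, with 50.2, 59.2 and 50.6 CPM against 22.0, 18.2 and 23.4 CPM.

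C4H VIT_06s0004g08150 varied least of the 10 genes, with a 2.08-fold range of group means. In Noble it measured 691, 719.7 and 683 CPM at E-L 32 and 364, 407 and 381 CPM at E-L 35. In Carlos it measured 792, 769 and 837 CPM at E-L 32 and 686, 671 and 653 CPM at E-L 35. Noble at E-L 35 was thus the lowest group. At E-L 38 the libraries labelled Noble had 598, 629.7 and 698 CPM, and those labelled Carlos 439, 459.9 and 709 CPM. Between the highest and the lowest group, Noble at E-L 32, Carlos at E-L 35 and both labels at E-L 38 each overlapped in range with their neighbour in the order.

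The other C4H identifiers were low. VIT_11s0065g00350 measured 4.49 to 24.3 CPM in all libraries of E-L 32 and E-L 35 and in those labelled Noble at E-L 38, and 34.6, 35.2 and 162 CPM in those labelled Carlos at E-L 38. VIT_11s0078g00290 measured 12.1, 17.2 and 13.3 CPM in Noble at E-L 32 and at most 5.46 CPM in every other library except Carlos E-L 38 replicate 3, where it had 19.3 CPM. The high values of both at E-L 38 are thus largest in 1 library.

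The 4CL genes had their highest group means at opposite ends of the span. VIT_11s0052g01090 measured 402, 536 and 489.6 CPM in Noble and 158, 161 and 167 CPM in Carlos at E-L 32. At veraison it was at 24.5, 37.9 and 37.0 CPM in Noble and 26.6, 28.9 and 73.2 CPM in Carlos. At E-L 38 it stayed at 21.6 to 69.5 CPM under both labels, and the 4 groups of E-L 35 and E-L 38 overlapped with their neighbours in the order. VIT_16s0039g02040 measured 88.1, 86.6 and 79.8 CPM in Noble and 152, 151 and 154 CPM in Carlos at E-L 32, and 130.4, 137 and 112 CPM and 227, 216 and 108 CPM at E-L 35. At E-L 38 it reached 281, 303 and 298 CPM under the Noble label and 183, 184 and 245 CPM under the Carlos label.

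From bunch closure to veraison, 1 gene of each of the 3 families fell several-fold in Noble. Other genes of the PAL and 4CL families were higher by smaller steps on the TMM scale, while no C4H gene was called higher. In Noble 7 of the 10 genes were called at an adjusted p under 0.05, with 3 higher and 4 lower at E-L 35, while 50.1% of all genes tested were called (23.7% higher, 26.4% lower). Lower were 4CL VIT_11s0052g01090, by a log2 fold change of -3.84 ± 0.45 (SE, 14.3-fold), PAL VIT_08s0040g01710, by -3.14 ± 0.51, C4H VIT_11s0078g00290, by -2.86 ± 0.69, and C4H VIT_06s0004g08150, by -0.86 ± 0.15. The adjusted p-values of these 4 (edgeR) ran from 1.1e-05 to 0.0032. Higher were PAL VIT_06s0004g02620 at 0.49 ± 0.12 (adjusted p = 0.0032), PAL VIT_16s0039g01100 at 0.79 ± 0.28 (adjusted p = 0.028) and 4CL VIT_16s0039g02040 at 0.58 ± 0.20 (adjusted p = 0.028). On the TPM scale these rises were smaller, at 0.13, 0.36 and 0.22 in the same order, and the median of all genes was 0.30 below that on the TMM scale. The calls of VIT_16s0039g01100 and VIT_16s0039g02040 in Noble ended when single libraries were left out. For VIT_16s0039g01100 these were any replicate of E-L 32 or replicate 1 of E-L 35 (adjusted p up to 0.090), and for VIT_16s0039g02040 replicates 2 and 3 of E-L 32 and 1 and 2 of E-L 35 (adjusted p up to 0.10).

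In Carlos the same step called 4 of the 10 genes, 3 higher and 1 lower, beside 53.5% of all genes tested (26.1% higher, 27.4% lower). PAL VIT_13s0019g04460 rose by 3.38 ± 0.48 on the log2 scale (10.4-fold, adjusted p = 4.3e-05 by edgeR). Without Carlos E-L 35 replicate 3 the rise was 3.86 ± 0.26. PAL VIT_16s0039g01100 rose by 1.15 ± 0.28 (adjusted p = 0.0029) and C4H VIT_11s0065g00350 by 1.25 ± 0.45 (adjusted p = 0.030). The latter call ended without any 1 of the Carlos E-L 32 libraries or without Carlos E-L 35 replicate 1 (adjusted p 0.052 to 0.084). It also ended with limma-voom on all libraries (adjusted p = 0.11), and held in 9 of 15 other settings. 4CL VIT_11s0052g01090 fell by 1.92 on the log2 scale (SE 0.42, adjusted p = 0.0013), and without Carlos E-L 35 replicate 3 the change was -2.54 ± 0.39. Without that library VIT_16s0039g02040 was also called, at 0.55 ± 0.12 (adjusted p = 0.00099) in place of 0.27 ± 0.20 (adjusted p = 0.27).

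Over both cultivars, 8 of the 10 genes were called between E-L 32 and E-L 35, 4 in each direction, beside 62.6% of all genes (30.6% higher, 32.1% lower). The fall of 4CL VIT_11s0052g01090 had the largest size, -2.88 ± 0.31, and the rise of PAL VIT_13s0019g04460 came next at 2.19 ± 0.33. PAL VIT_08s0040g01710 (-1.55 ± 0.34), C4H VIT_11s0078g00290 (-1.61 ± 0.47) and C4H VIT_06s0004g08150 (-0.56 ± 0.10) were lower, and PAL VIT_16s0039g01100 (0.97 ± 0.20) was higher. PAL VIT_06s0004g02620 (0.26 ± 0.08) and 4CL VIT_16s0039g02040 (0.42 ± 0.14) were called higher by smaller steps. These small rises depend on the scale and on single libraries. Leaving out Noble E-L 32 replicate 3 ended both calls, each with an adjusted p of 0.053, and that of VIT_16s0039g02040 also without Carlos E-L 35 replicate 1 (adjusted p = 0.051). The median change of all genes on the TPM scale was 0.31 below that on the TMM scale in this step, and the changes in TPM were -0.10 for VIT_06s0004g02620, of opposite sign, and 0.02 for VIT_16s0039g02040. The median log2 fold change of the 10 genes was 0.12, and that of all genes tested -0.0018.

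**Figure D2:**
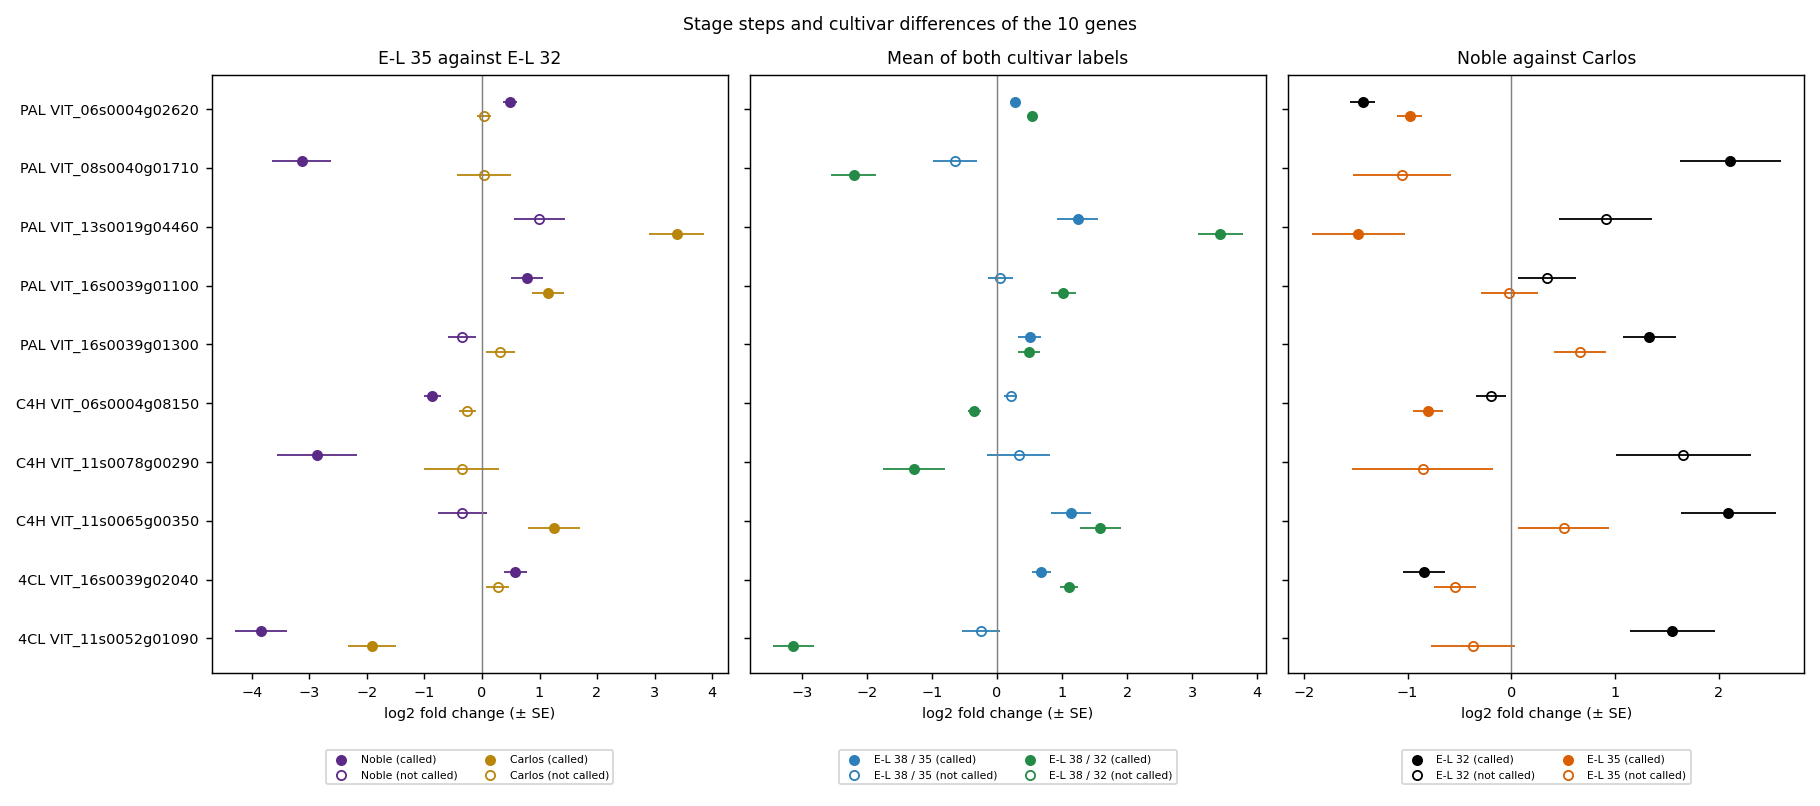
Log2 fold change with its standard error (edgeR, TMM scale) of the 10 genes for the step E-L 32 to E-L 35 in each cultivar (left), the steps to E-L 38 as the mean of both labels (middle) and Noble against Carlos at E-L 32 and E-L 35 (right). Filled points were called at an adjusted p under 0.05; VIT_08s0040g01710 is at -3.14 in Noble and 0.03 in Carlos for the first step.

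The early step differed between the cultivars for 3 of the 10 genes, all lower in Noble relative to Carlos, where 17.6% of all genes tested were called for this difference (8.69% higher, 8.91% lower). PAL VIT_08s0040g01710 had a log2 fold change of -3.14 in Noble and 0.03 in Carlos, a difference of -3.16 ± 0.68 (SE, adjusted p = 0.0054 by edgeR). PAL VIT_13s0019g04460 had a log2 fold change of 0.997 ± 0.45 in Noble, which was not called (adjusted p = 0.076), and of 3.38 in Carlos, a difference of -2.38 ± 0.63 (adjusted p = 0.018). 4CL VIT_11s0052g01090 was lower at E-L 35 in both, with a difference of -1.92 ± 0.58 (adjusted p = 0.032). That last call is not firm: without Carlos E-L 35 replicate 3 the difference was -1.30 ± 0.47 (adjusted p = 0.056), and it also ended without Noble E-L 32 replicate 2 or 3, any 1 of the Carlos E-L 32 libraries, or Noble E-L 35 replicate 1 or 3 (adjusted p 0.053 to 0.083). Without the same library the difference of VIT_13s0019g04460 was -2.85 ± 0.33, while with limma-voom on all libraries it was -2.01 (adjusted p = 0.052). For C4H no gene was called in this difference, with VIT_06s0004g08150 at -0.61 ± 0.21 (adjusted p = 0.055). Without Carlos E-L 35 replicate 3 it was called at -0.63 ± 0.21 (adjusted p = 0.039).

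In the late step, E-L 35 to E-L 38 as a mean of both labels, 5 of the 10 genes rose, beside 38.1% of all genes called (16.9% higher, 21.2% lower). By edgeR 0 members were called lower, and 0 were lower at an unadjusted p under 0.05. DESeq2 also called 0 lower and limma-voom 1. PAL VIT_13s0019g04460 rose by 1.24 ± 0.32 on the log2 scale (adjusted p = 0.0071 by edgeR), C4H VIT_11s0065g00350 by 1.13 ± 0.31 (adjusted p = 0.010) and 4CL VIT_16s0039g02040 by 0.68 ± 0.14 (adjusted p = 0.0022). PAL VIT_16s0039g01300 rose by 0.50 ± 0.18 (adjusted p = 0.035) and PAL VIT_06s0004g02620 by 0.28 ± 0.08 (adjusted p = 0.018). Carlos E-L 38 replicate 3 bears on several of these. Without it VIT_11s0065g00350 was at 0.56 ± 0.12, VIT_16s0039g01300 was no longer called (0.30 ± 0.14, adjusted p = 0.11, and 0.055 to 0.083 without any 1 of 6 other libraries: Noble E-L 35 replicates 2 and 3, Carlos E-L 35 replicates 1 and 2, and the libraries labelled Noble E-L 38 replicates 1 and 2), and PAL VIT_08s0040g01710 was called lower, at -1.27 ± 0.17 (adjusted p = 0.00016) in place of -0.65 ± 0.33 (adjusted p = 0.14).

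Taken by label, the late step called 4 of the 10 genes in the libraries labelled Noble, all higher, beside 32.5% of all genes (15.3% higher, 17.3% lower). They were VIT_06s0004g02620 (1.18 ± 0.12), VIT_13s0019g04460 (2.35 ± 0.46), VIT_06s0004g08150 (0.74 ± 0.15) and VIT_16s0039g02040 (1.21 ± 0.20), the leading gene of each family among them. In the libraries labelled Carlos 3 were called, beside 40.5% of all genes (18.7% higher, 21.8% lower). VIT_11s0065g00350 (2.57 ± 0.45) and VIT_16s0039g01300 (1.43 ± 0.25) were higher and VIT_06s0004g02620 (-0.63 ± 0.12) lower. Without Carlos E-L 38 replicate 3 the value of VIT_11s0065g00350 was 1.41 ± 0.18, and 5 genes were called. With single libraries left out, that one among them, 5859 to 6886 of all genes were called in the step labelled Carlos, against 7149 with all libraries. The number for that fit alone is not given here, so the count of 5 is not read as particular to the members. The difference of the late step between the labels, a comparison added after the data were seen, was called for 7 of the 10 genes beside 33.4% of all genes (16.9% higher, 16.5% lower). Since the libraries at E-L 38 went against their labels, neither of these values can be read as a change within a cultivar.

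Over the whole span from E-L 32 to E-L 38, averaged over both labels, all 10 genes were called, 6 higher and 4 lower, beside 70.5% of all genes (34.9% higher, 35.6% lower). PAL VIT_13s0019g04460 rose 10.8-fold (log2 fold change 3.43 ± 0.34, adjusted p = 4.4e-07 by edgeR). 4CL VIT_11s0052g01090 fell 8.75-fold (-3.13 ± 0.31, adjusted p = 3.8e-07) and PAL VIT_08s0040g01710 fell 4.60-fold (-2.20 ± 0.35, adjusted p = 4.3e-05). C4H VIT_11s0065g00350 rose by 1.59 ± 0.31, 4CL VIT_16s0039g02040 by 1.11 ± 0.14, PAL VIT_16s0039g01100 by 1.02 ± 0.20, PAL VIT_06s0004g02620 by 0.54 ± 0.08 and PAL VIT_16s0039g01300 by 0.49 ± 0.18. C4H VIT_11s0078g00290 (-1.27 ± 0.47) and C4H VIT_06s0004g08150 (-0.35 ± 0.10) fell. On the TPM scale, where the median of all genes was 0.41 lower than on the TMM scale, VIT_06s0004g02620 was at 0.05 and VIT_16s0039g01300 at -0.02. Without Carlos E-L 38 replicate 3, VIT_08s0040g01710 was at -2.82 ± 0.19, VIT_11s0078g00290 at -2.16 ± 0.30 and VIT_16s0039g01300 was not called (0.29 ± 0.14, adjusted p = 0.069). The rises of VIT_11s0065g00350 and VIT_16s0039g01100 were then 1.02 ± 0.12 and 0.79 ± 0.14. The call of VIT_16s0039g01300 was also lost, with an adjusted p of 0.060, when Noble E-L 32 replicate 3 was left out, and that of VIT_11s0078g00290 without Carlos E-L 32 replicate 3 or replicate 1 of either label at E-L 38 (adjusted p 0.051 to 0.056). This span shares its end stages with the steps above, so its values are not separate evidence.

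Between the cultivars at bunch closure, every family held genes of unequal level, and for PAL and 4CL the direction differed within the family. Of the 10 genes 6 were called, 4 higher and 2 lower in Noble, beside 27.5% of all genes tested (13.8% higher, 13.6% lower). Higher in Noble were PAL VIT_08s0040g01710 (2.11 ± 0.49, 4.32-fold, adjusted p = 0.0050 by edgeR), C4H VIT_11s0065g00350 (2.09 ± 0.46), 4CL VIT_11s0052g01090 (1.55 ± 0.41) and PAL VIT_16s0039g01300 (1.33 ± 0.25). Lower in Noble were PAL VIT_06s0004g02620 (-1.43 ± 0.12, adjusted p = 1.6e-06) and 4CL VIT_16s0039g02040 (-0.84 ± 0.20, adjusted p = 0.0065). The leading C4H gene VIT_06s0004g08150 was at -0.20 ± 0.15 and was not called (adjusted p = 0.35). With any 1 library of these groups left out, 6 genes were called, beside 3405 to 3596 of all genes (4852 with all libraries).

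At veraison 3 of the 10 genes were called between cultivars, all lower in Noble, beside 19.0% of all genes (9.75% higher, 9.25% lower). They were PAL VIT_06s0004g02620 (-0.98 ± 0.12, adjusted p = 7.8e-05 by edgeR), C4H VIT_06s0004g08150 (-0.80 ± 0.15, adjusted p = 0.0017) and PAL VIT_13s0019g04460 (-1.48 ± 0.45, adjusted p = 0.033). The values of the last rest on an uneven group: without Carlos E-L 35 replicate 3 the difference was -1.95 ± 0.24 (adjusted p = 5.3e-05), while the call ended without Carlos replicate 1 (-1.12 ± 0.47, adjusted p = 0.12) or 2, or Noble replicate 1 or 3 (adjusted p 0.10 to 0.11). It also ended with limma-voom (-1.10 ± 0.48, adjusted p = 0.12) and in an edgeR fit to the compared groups alone (-1.48 ± 0.61, adjusted p = 0.25), so that it held in 8 of 15 other settings. Without replicate 3 the number called was 5, with 4CL VIT_16s0039g02040 lower in Noble (-0.81 ± 0.12, adjusted p = 0.00019) and PAL VIT_16s0039g01300 higher (0.95 ± 0.24, adjusted p = 0.0096) beside the other three. Over all genes 3356 were called with all libraries, and 1869 to 4944 with single libraries left out. Without Carlos E-L 35 replicate 3, Noble E-L 32 replicate 1 and Noble E-L 35 replicate 2, 32.8% of all genes were called. The count of 5 is therefore not read as particular to the members. VIT_08s0040g01710, higher in Noble at E-L 32, was at -1.05 ± 0.48 and not called at E-L 35 (adjusted p = 0.14).

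At maturity 5 of the 10 genes were called between the labels, 1 higher and 4 lower under the Noble label, beside 23.4% of all genes (11.4% higher, 12.0% lower). VIT_06s0004g02620 was higher under the Noble label (0.84 ± 0.12, adjusted p = 0.00017 by edgeR), the opposite of its direction at E-L 32 and E-L 35. VIT_11s0065g00350 (-2.37 ± 0.45), VIT_16s0039g01300 (-1.18 ± 0.25), VIT_16s0039g01100 (-1.17 ± 0.28) and VIT_11s0078g00290 (-2.54 ± 0.71) were lower under the Noble label. VIT_11s0065g00350 and VIT_16s0039g01300, too, had been called the other way at E-L 32. Over 15 other settings VIT_16s0039g01100 stayed called, at -1.38 to -0.68. Without Carlos E-L 38 replicate 3 VIT_11s0078g00290 was at -0.75 ± 0.44 (adjusted p = 0.27; 0.066 and 0.057 without replicates 1 and 3 labelled Noble) and VIT_11s0065g00350 at -1.21 ± 0.18 (adjusted p = 0.00040). Without that library 3 more genes were called, higher under the Noble label: VIT_08s0040g01710 at 1.33 ± 0.26 (adjusted p = 0.0029, in place of 0.07), VIT_06s0004g08150 at 0.53 ± 0.10 (adjusted p = 0.0025) and VIT_16s0039g02040 at 0.69 ± 0.22 (adjusted p = 0.042). The count was then 4 higher and 3 lower, beside 19.3% of all genes.

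The share of each gene in its family was compared on the TPM scale. Of the summed TPM of the 2 listed 4CL genes, VIT_16s0039g02040 took 15.4% ± 2.34 (SD, n = 3) in Noble and 48.6% ± 0.523 in Carlos at E-L 32. At E-L 35 its share was 79.3% ± 4.52 in Noble and 79.2% ± 16.8 in Carlos, where replicate 3 had 59.8%. At E-L 38 it was 91.9% ± 1.13 under the Noble label and 85.2% ± 6.22 under the Carlos label. In every library of E-L 32 VIT_11s0052g01090 was the more abundant gene of the pair, and in every library of the later stages it was the less abundant. The ratio ran from 6.15-fold in favour of VIT_11s0052g01090, in Noble E-L 32 replicate 2, to 13.6-fold in favour of VIT_16s0039g02040, in the library labelled Noble E-L 38 replicate 2. The summed 4CL level went from 439 TPM ± 63.1 to 98.2 TPM ± 11.3 in Noble and from 223 TPM ± 0.723 to 125 TPM ± 23.9 in Carlos between E-L 32 and E-L 35. On the TPM scale the median log2 change of all genes in this step was -0.33 in Noble and -0.35 in Carlos. Sums in TPM, here and for PAL below, carry that shift.

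**Figure D3:**
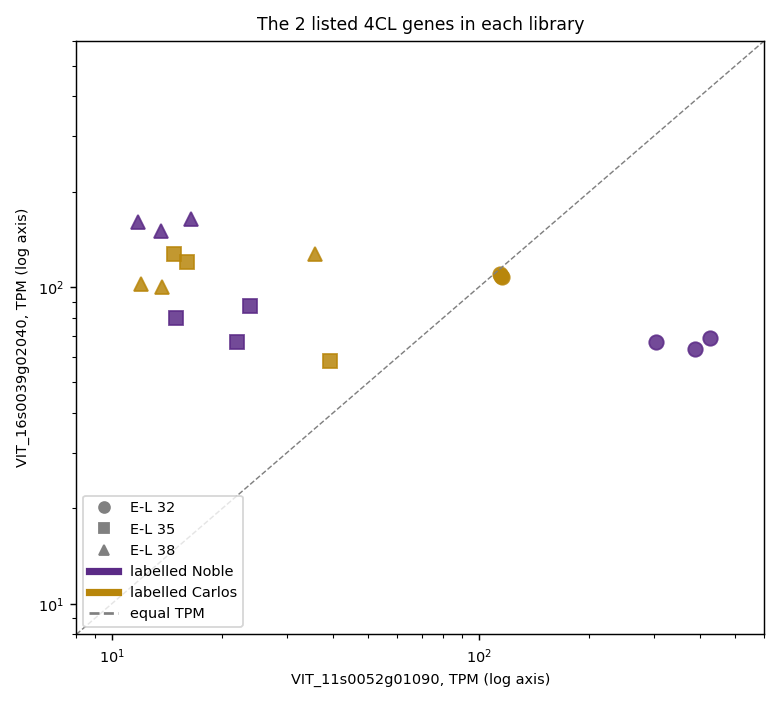
TPM of the 4CL genes VIT_11s0052g01090 (x) and VIT_16s0039g02040 (y) in each of the 18 libraries, both on log axes; colours are cultivar labels and symbols are stages. All 6 libraries of E-L 32 lie below the dashed line of equal TPM, the Carlos ones just below it, and all 12 later libraries lie above it.

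Among the PAL genes, VIT_06s0004g02620 and VIT_08s0040g01710 shared most of the TPM of Noble at E-L 32, with 39.0% ± 2.36 and 48.8% ± 2.90. In Carlos at the same stage VIT_06s0004g02620 alone took 85.9% ± 1.07. The share of VIT_13s0019g04460 was 7.25% ± 0.454 in Noble and 3.14% ± 0.0290 in Carlos at E-L 32, and 35.8% ± 1.14 and 34.0% ± 4.92 under the labels Noble and Carlos at E-L 38. VIT_08s0040g01710 took 2.54% ± 0.794 and 3.46% ± 2.36 there. The summed PAL level was 776 TPM ± 82.9, 477 TPM ± 32.9 and 1092 TPM ± 37.4 under the Noble label at E-L 32, E-L 35 and E-L 38, and 859 TPM ± 25.4, 882 TPM ± 168 and 659.8 TPM ± 196 under the Carlos label. Since the libraries at E-L 38 went against their labels, the last value of each row cannot be read as the course of a cultivar. C4H had the most uneven makeup at all stages, with 88.0% to 98.7% of the summed TPM in VIT_06s0004g08150 as group means. Its lowest share, 79.5%, was in Carlos E-L 38 replicate 3. Shares are of the listed genes only, so further genes of each family would change them.

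**Figure D4:**
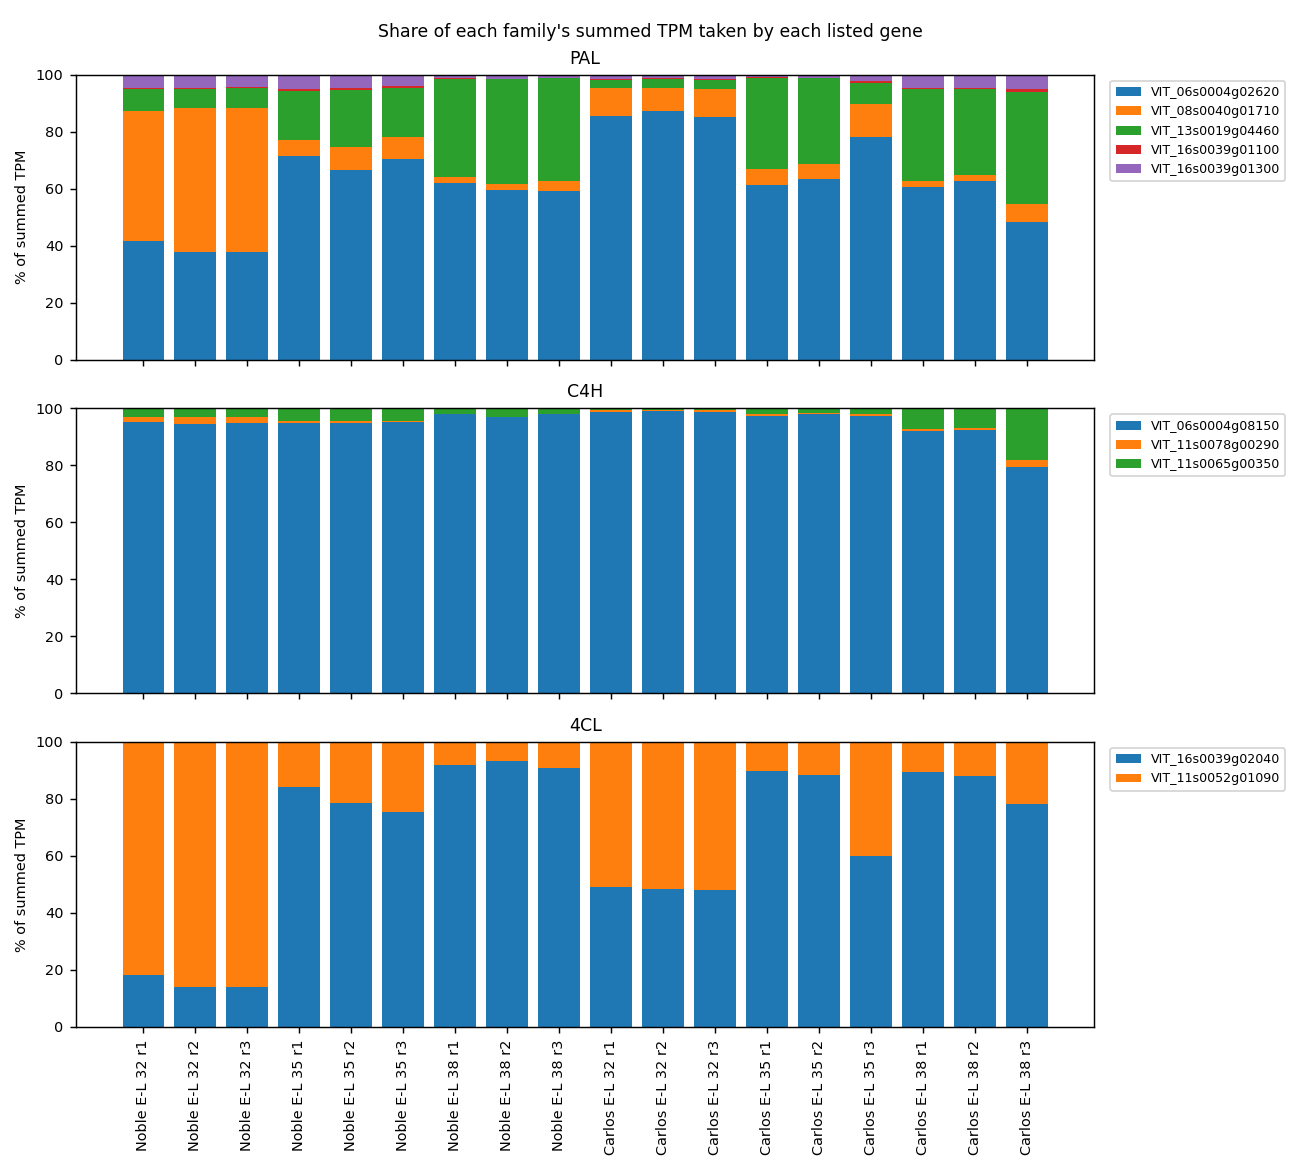
Share of the summed TPM of the listed PAL, C4H and 4CL genes (y, percent) taken by each gene, in each of the 18 libraries. In Noble at E-L 32 VIT_08s0040g01710 takes 45.5% to 50.6% of the PAL sum; VIT_06s0004g08150 takes at least 79.5% of the C4H sum in every library.

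The estimates of 4 members divide reads among similar genes. The expected count of VIT_16s0039g01100, VIT_16s0039g01300, VIT_11s0078g00290 and VIT_11s0065g00350 was not a whole number (over 0.005 from one) in 17 or 18 of the 18 libraries, and for the other 6 members it was whole in every library. The counts of the C4H identifiers VIT_11s0078g00290 and VIT_11s0065g00350 summed to a whole number, within 0.05, in 18 of 18 libraries. Their sum was 37.5 CPM ± 3.43, 20.4 CPM ± 1.34 and 16.3 CPM ± 4.06 under the Noble label and 9.97 CPM ± 2.13, 16.5 CPM ± 3.29 and 85.2 CPM ± 83.0 under the Carlos label, from E-L 32 to E-L 38. The values at E-L 38 go by label and are not a course within a cultivar. VIT_11s0065g00350 received 52.7% to 65.8% of that sum at bunch closure, 71.8% to 92.4% at veraison and 89.3% to 94.7% at maturity. Whether the reads belong to the identifier that received them was not tested.

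The PAL identifiers VIT_16s0039g01100 and VIT_16s0039g01300 belong to a set of 10 identifiers numbered between VIT_16s0039g01100 and VIT_16s0039g01360, the ones in that range whose counts were not whole. Their counts summed to a whole number, within 0.05, in 18 of 18 libraries. The set was chosen after its values were seen and leaves out the identifiers of the range with whole counts or none, and no name is given here to the 8 identifiers in it that are not members. The members held 42.3% to 50.1% of the counts of the set. The set measured 123.3 CPM ± 11.005, 107 CPM ± 8.12 and 74.5 CPM ± 12.2 under the Noble label and 50.7 CPM ± 5.83, 70.3 CPM ± 24.5 and 179 CPM ± 91.6 under the Carlos label, from E-L 32 to E-L 38. Here too the values at E-L 38 go by label and do not continue those of a cultivar. At E-L 32 all Noble libraries were above all Carlos libraries in this sum, and at E-L 38 all libraries labelled Noble were below all labelled Carlos. Of the 8 other identifiers, 6 were called higher in Noble at E-L 32, and 4 lower under the Noble label at E-L 38, with 0 called the other way at either stage by the same edgeR test. Of all genes tested 13.8% were called higher at E-L 32 and 12.0% lower at E-L 38. These identifiers share reads with the members, so their calls are not separate support.

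**Figure D5:**
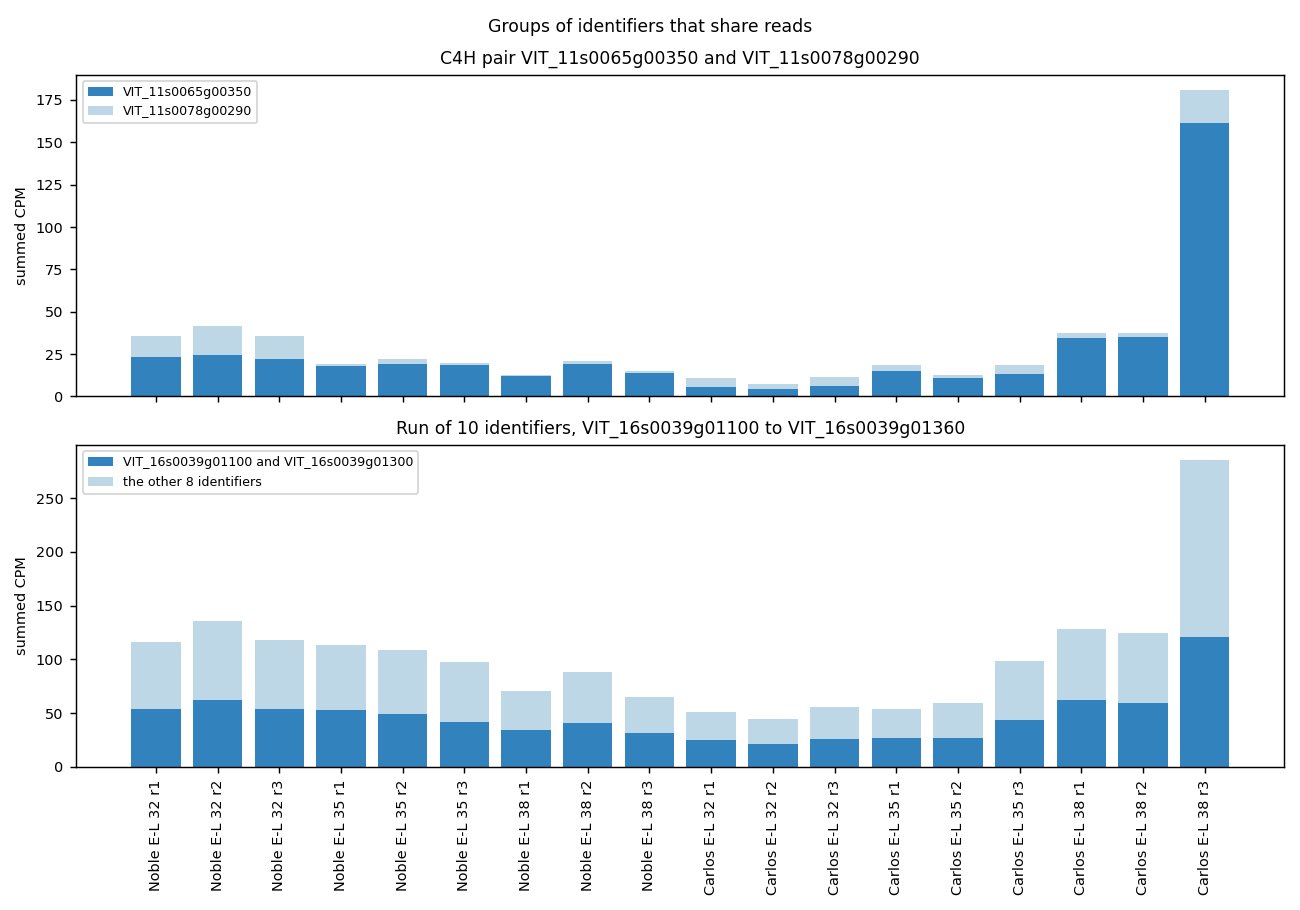
Summed CPM (y) of the C4H pair VIT_11s0065g00350 and VIT_11s0078g00290 (top) and of the set of 10 identifiers that holds 2 PAL members (bottom) in each of the 18 libraries; colours split each bar by identifier. Carlos E-L 38 replicate 3 stands out in both, at 181 CPM and 285 CPM.

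Patterns over the 18 libraries were compared by the root mean square difference of log2 CPM, each gene centred on its own mean. Between members, PAL VIT_06s0004g02620 and 4CL VIT_16s0039g02040 were the most alike, at 0.39, and PAL VIT_13s0019g04460 and 4CL VIT_11s0052g01090 the least, at 2.95. PAL VIT_08s0040g01710 and 4CL VIT_11s0052g01090, both highest in Noble at E-L 32, differed by 0.73. Among 10294 further genes averaging 10 CPM or more, the nearest to VIT_06s0004g02620 was VIT_07s0005g00270, at 0.18 where the median of all was 0.69. The nearest to C4H VIT_06s0004g08150 was VIT_05s0077g00450, at 0.15 where the median was 0.54. The nearest to 4CL VIT_16s0039g02040 was VIT_18s0001g13270, at 0.20 where the median was 0.65. The nearest of so many genes lies below their median by its choice, so the medians serve as a scale only. Over the 18 libraries the log2 CPM of these 3 members had an SD of 0.62, 0.38 and 0.62, in the order named. These values describe 18 libraries that share groups, and say nothing of shared function.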

How the data were processed

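Total RNA of berries was made into directional libraries, per the labels' protocols. STAR 2.7.6a and RSEM 1.3.3 were used, per the submitters' processing notes. The build, the annotation and the use of strand in counting were not given in the sources used here. As the file headers show, the authors deposited an expected count, TPM and FPKM for each of 27228 identifiers per library. An expected count divides a read among the genes it matches. The deposited TPM values are scaled by length and to a common library total, and the deposited FPKM values by length and library total. TPM was used to compare levels between genes, for the shares and sums of each family, and as a second scale for changes between stages. FPKM served as an alternative for the shares.

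The members, lists and tests were chosen with earlier results of these data known. Groups came from the labels. Expected counts were rounded, filtered with filterByExpr (17657 genes left) and scaled by TMM in edgeR 4.0.16 (R 4.3.3). The quasi-likelihood F test used a single fit with a coefficient for each of the 6 groups. Benjamini-Hochberg adjustment covered the 17657 genes, and genes with an adjusted p below 0.05 count as called. The standard error is the log2 fold change over the square root of F. CPM is the rounded count scaled to a common total after TMM. Besides all members, the text names for the most abundant gene of each family the 1 other gene nearest to it over the libraries. Alternatives were RLE and upper-quartile scaling, no filter, DESeq2 1.42.0, limma-voom (limma 3.58.1), a fit to the compared groups, a replicate block and left-out libraries. The fit was also run on simulated data with changes in a single group and no library that stood apart. That setting differs from these libraries, so nothing here rests on its outcome. A reference table of 27334 genes matched 0 identifiers, so no pathway list was tested and no sequence is shown. The lowest chi-square per degree of freedom between replicates was 2.96, so no library was taken as deposited in duplicate. Depths of 18919160 to 30843026 counts limit the genes of a few CPM most.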

Additional observations from a re-analysis of the deposited data

Results flagged for a closer look

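The early step, bunch closure to veraison, differed between Noble and Carlos, by the edgeR test of that difference, for 3 of the 10 genes, beside 17.6% of all genes tested. The difference of log2 fold changes, Noble minus Carlos, was -3.16 ± 0.68 (SE, adjusted p = 0.0054) for PAL VIT_08s0040g01710, -2.38 ± 0.63 (adjusted p = 0.018) for PAL VIT_13s0019g04460 and -1.92 ± 0.58 (adjusted p = 0.032) for 4CL VIT_11s0052g01090. The last call ended when any 1 of 8 libraries was left out, and without Carlos E-L 35 replicate 3 the difference was -1.30 ± 0.47 (adjusted p = 0.056).

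The late step, veraison to maturity, differed between the labels for 7 of the 10 genes, beside 33.4% of all genes tested. This comparison was added after the data were seen. The differences, label Noble minus label Carlos, were 1.82 ± 0.17 for VIT_06s0004g02620, 2.23 ± 0.63 for VIT_13s0019g04460, 1.06 ± 0.21 for VIT_06s0004g08150 and 1.06 ± 0.29 for VIT_16s0039g02040. They were -1.15 ± 0.39 for VIT_16s0039g01100, -1.85 ± 0.35 for VIT_16s0039g01300 and -2.88 ± 0.62 for VIT_11s0065g00350. Adjusted p-values (edgeR) ran from 2e-06 to 0.032. As the libraries at E-L 38 went against their labels, a difference between cultivars and the labelling cannot be told apart here. Without Carlos E-L 38 replicate 3, VIT_11s0065g00350 was at -1.71 ± 0.24 and VIT_16s0039g01100 was not called (-0.66 ± 0.29, adjusted p = 0.095), while VIT_08s0040g01710 was called at 2.39 ± 0.34 (adjusted p = 0.00015) in place of 1.13 ± 0.67 (adjusted p = 0.21). The call of VIT_16s0039g01100 also ended without any 1 of 5 other libraries: Noble E-L 35 replicate 1, Carlos E-L 35 replicates 1 and 2, and labelled Noble E-L 38 replicates 1 and 3 (adjusted p 0.066 to 0.079).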

How the results depend on the processing

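Of 2100 results under another setting, 1894 kept their direction and their side of the threshold, 83 gained and 64 lost a call in the same direction, and the rest had the opposite sign. In 57 of these the value was called neither with all libraries nor in the other setting, and 2 were called in the other setting. Both are for the libraries labelled Carlos from E-L 35 to E-L 38, without Noble E-L 32 replicate 1, Noble E-L 35 replicate 2, Carlos E-L 35 replicate 3 and Carlos E-L 38 replicate 3: VIT_13s0019g04460 went from 0.13 to -0.83 (adjusted p = 3.2e-06) and VIT_16s0039g02040 from 0.15 to -0.29 (adjusted p = 0.010), and with single libraries left out they ran from -0.36 to 0.47 and from -0.14 to 0.32, negative without replicate 3 of Carlos E-L 35 or E-L 38. Leaving out these 4 was chosen after seeing the data. Under it the members called numbered 7 for that step (3 with all libraries), 6 between cultivars at E-L 35 (3), 8 between labels at E-L 38 (5) and 7 for the difference of the early step (3), beside 42.5%, 39.9%, 38.3% and 37.0% of all genes. Without the first 3 of these libraries the number at E-L 35 was 5, beside 32.8%. In the step labelled Carlos from E-L 35 to E-L 38 it was 5 with upper-quartile scaling, with DESeq2 and with limma-voom. With a fit to the compared groups alone it was 3 (5) from E-L 35 to E-L 38 over both labels and 7 for the early difference, and with DESeq2 it was 7 for the latter. The number of all genes called in these fits, and with upper-quartile scaling and limma-voom, is not given beside these counts. They are therefore not read as particular to the members. In the fit to the compared groups VIT_06s0004g02620 lost its calls in the late step under the Carlos label (adjusted p = 0.059) and over both labels (0.066). The causes of these moves were not tested. Single libraries left out gave 5 to 7 members for the early step in Noble, 3 to 5 in Carlos and 6 to 8 over both, with 7357 to 8815, 8151 to 10692 and 10348 to 12158 genes called in all. For the late step they gave 4 to 4 under the Noble label, 3 to 5 under the Carlos label and 4 to 6 over both (4245 to 4953, 5859 to 6886 and 5654 to 6948 genes), and 9 to 10 over the whole span (11838 to 12251). Between labels at E-L 32, E-L 35 and E-L 38 they gave 6 to 6, 2 to 5 and 4 to 7 (3405 to 3596, 1869 to 4944 and 2992 to 3454), and for the differences of the early and the late step 2 to 3 and 6 to 7 (2105 to 4770 and 5003 to 7079).

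No pairing of libraries by replicate number was seen. Over 45 pairs of the same number in different groups the correlation of deviations from the group means ran from -0.23 to 0.31. Of these, 5 pairs were over 0.1, and 5 of 18 libraries correlated best with their own number. Deviations within a group of 3 depend on each other, so this check cannot exclude a pairing. With the replicate block 1 of 120 results lost its call, VIT_13s0019g04460 between cultivars at E-L 35 (-1.45, adjusted p = 0.058), and VIT_08s0040g01710 gained calls in the late step under the Carlos label (-1.41, adjusted p = 0.017) and over both labels (-0.78, adjusted p = 0.049). The number called with the block was 4 (3 without) under the Carlos label, 6 (5) over both labels and 2 (3) at E-L 35, and 3 for the early difference either way, beside 37.6%, 35.4%, 17.1% and 15.6% of all genes.

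Over all genes the number called between cultivars at E-L 32 was 9298 in a fit to these groups alone and 7907 without the 4 libraries, against 4852. At E-L 35 it was 449 in such a fit and 5841 and 7087 without the 3 and the 4 libraries, against 3356, and between labels at E-L 38 it was 6671 and 6803, against 4130. The late step under the Carlos label had 2746 in such a fit, against 7149, and the early difference 5252 and 6575 without the 3 and the 4 libraries, against 3108. Depth leaves the estimates of the genes of a few CPM, such as VIT_11s0078g00290, on the fewest counts, at least 21.35 per library.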
